A study of Mus musculus with 10 samples.

Results

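The proteasome subunit genes are the protein-coding genes of the deposited table whose names begin with Psma, Psmb, Psmc or Psmd and a number, without the inducible immunoproteasome genes Psmb8, Psmb9 and Psmb10. The rule uses names and biotype alone and gave 37 genes of the 57825 listed. It takes in 33 subunits, 3 assembly chaperones (Psmd5, Psmd9 and Psmd10) and Psmc3ip, which matches by name only and encodes HOP2, a factor of meiotic recombination. RNA was sequenced from purified CD8+ T cells of mouse spleen in 2 groups of 5 samples. Both groups had been co-cultured with the mouse mammary tumor line 4T1 and were labelled day 3; one had no addition (CD8+4T1) and the other had sodium acetate (CD8+4T1+NaAc). By the methods of the study, T cells from female Balb/c mice were activated for 12 h on plates coated with anti-CD3 in the presence of IL-2 and anti-CD28, kept for 24 h with or without NaAc, at 5 mM in the sequenced group, and then cultured for 48 h with the tumor cells. The comparison asks what acetate does to the transcripts of T cells that meet tumor cells. No sample without 4T1 cells was analysed here, so activation and tumor contact are shared by both groups. Nothing in the labels says whether the 5 samples of a group came from separate mice or cultures, so p-values measure only the spread between these samples.

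The 26S proteasome is the ATP-dependent protease that degrades proteins tagged with ubiquitin. Its 20S core is a barrel of alpha rings, which form the gate, around beta rings, which carry the peptidase sites. The 19S regulatory particle on the ends of the barrel holds a base, with a ring of ATPases that unfold and thread substrates, and a lid, which removes ubiquitin. In T cells the proteasome takes part in activation, and interferon exchanges the beta peptidases for the immunoproteasome subunits that shape peptides for MHC class I.

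The unit is FPKM, which divides the fragments of a gene by its length in kilobases and by the depth of its sample. By the depth recovered from their steps, the FPKM refer to 16306447 to 17443395 fragments per CD8+4T1 sample and 16503701 to 18853726 per CD8+4T1+NaAc sample, and a tested member had between 181 and 6706 fragments in a sample. The listed genes held 95.5% to 97.9% of those fragments in CD8+4T1 and 89.8% to 92.1% in CD8+4T1+NaAc. The T cell label was met: all 14 T cell markers were above 0 in every sample. Cd8a, which did not pass the test, averaged 78.6 ± 2.34 FPKM in CD8+4T1 and 76.5 ± 4.37 FPKM in CD8+4T1+NaAc (SD, n = 5). A list of 16 epithelial and 4T1 markers summed to 13.1 to 24.4 FPKM in CD8+4T1 and to 86.2 to 226 FPKM in CD8+4T1+NaAc. Of its 9 tested genes 6 were higher, among them Krt8 (3.42 ± 1.69 against 34.2 ± 13.1 FPKM), and Krt19, Krt14, Krt5, Cldn4 and Esrp1 were at 0 in at least 1 sample. The T cell markers held 1 gene higher and 7 lower of 14 and summed to 1237 to 1397 FPKM against 1000.5 to 1349.9 FPKM. The counts of all marker lists stand against 17.6% higher and 19.0% lower over all genes tested. Among genes whose mean reached 20 FPKM, 11.1% were higher and 42.7% lower. The higher T cell marker, Zap70, kept its call in 6 of 10 fits with a single sample removed and Cd2, lower, in 2. The 6 other lower T cell markers had no overlap between groups, against 13.3% of all genes tested, and kept the call in all 10 fits. They were Cd3d (log2 fold change -0.54), Cd3g (-0.53), Lat (-0.40), Cd3e (-0.36), Lck (-0.32) and Cd5 (-0.27). Of the markers of other blood cells, those of B cells (3.92 to 4.91 against 4.55 to 6.24 FPKM summed, 2 tested) held no call, those of myeloid cells (23.0 to 29.8 against 23.0 to 26.1 FPKM) held 1 gene higher of 2 tested, Lyz2, whose groups overlapped and whose call was kept in 4 of those 10 fits (adjusted p of up to 0.0844), and those of CD4 and NK cells (0.335 to 0.890 against 1.49 to 1.92 FPKM) held Cd4 as the 1 gene tested and higher. The part of 4T1 RNA in the results that follow was not tested. CD8+4T1+NaAc replicate 1 stood apart: it had 20233 genes above 0, the fewest (the other 9 samples had 22291 to 25088), and was the sample apart in 9 of the 10 groups of 5 values in which a member had one. In bulk RNA, fewer cells of a type and less RNA per cell cannot be told apart.

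Proteasome subunit transcripts were lower in CD8+4T1+NaAc. Of the 35 members whose mean reached 0.5 FPKM, 22 had an adjusted p under 0.05 and a lower level, against 19.0% of all 15710 genes tested, 0 were higher, against 17.6%, and 13 did not pass the test (limma on log2(FPKM + 0.1), Benjamini-Hochberg adjustment over all genes tested). The number higher was also 0 at an unadjusted p under 0.05 and with limma's voom on the recovered fragments. When FPKM were rescaled to the same total in each sample, 16 were lower (background 8.83%) and 3, Psmd4, Psmd5 and Psmd8, were higher (31.2%); after scaling to T cell markers 16 were lower (8.03%) and 2, Psmd4 and Psmd8, were higher (25.9%). The median log2 fold change of the members was -0.35, against -0.02 for all genes tested, and 32 of 35 were negative. Most members are strongly expressed. Among the 2829 genes whose mean reached 20 FPKM, a limit chosen after the values were seen, 42.7% were lower and the median was -0.16, while 21 of the 31 members above that limit were lower with a median of -0.35. The groups did not overlap, with every CD8+4T1+NaAc sample below every CD8+4T1 sample, for 21 members (background 13.3%). Psma8 (0 to 9 fragments in a sample) and Psmb11 (0 to 6 fragments), the variants of testis and thymus, were too low to be tested.

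Added over all 37 members, the FPKM of CD8+4T1 replicates 1 to 5 came to 2268.2, 2450.5, 2505, 2525 and 2500.0, and those of CD8+4T1+NaAc to 1822, 1995, 1963, 1915 and 2003. Every sample with NaAc was below every sample without it, and the ratio of the means was 0.792. As a share of all listed FPKM, which does not depend on the scale of a sample, the members held 0.729% to 0.763% in CD8+4T1 and 0.644% to 0.688% in CD8+4T1+NaAc, again without overlap, a ratio of 0.896. The median of the members was lower than the median of all genes by 0.33 on the log2 scale, a distance that a scaling of whole samples leaves nearly as it is by construction.

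**Figure D1:**
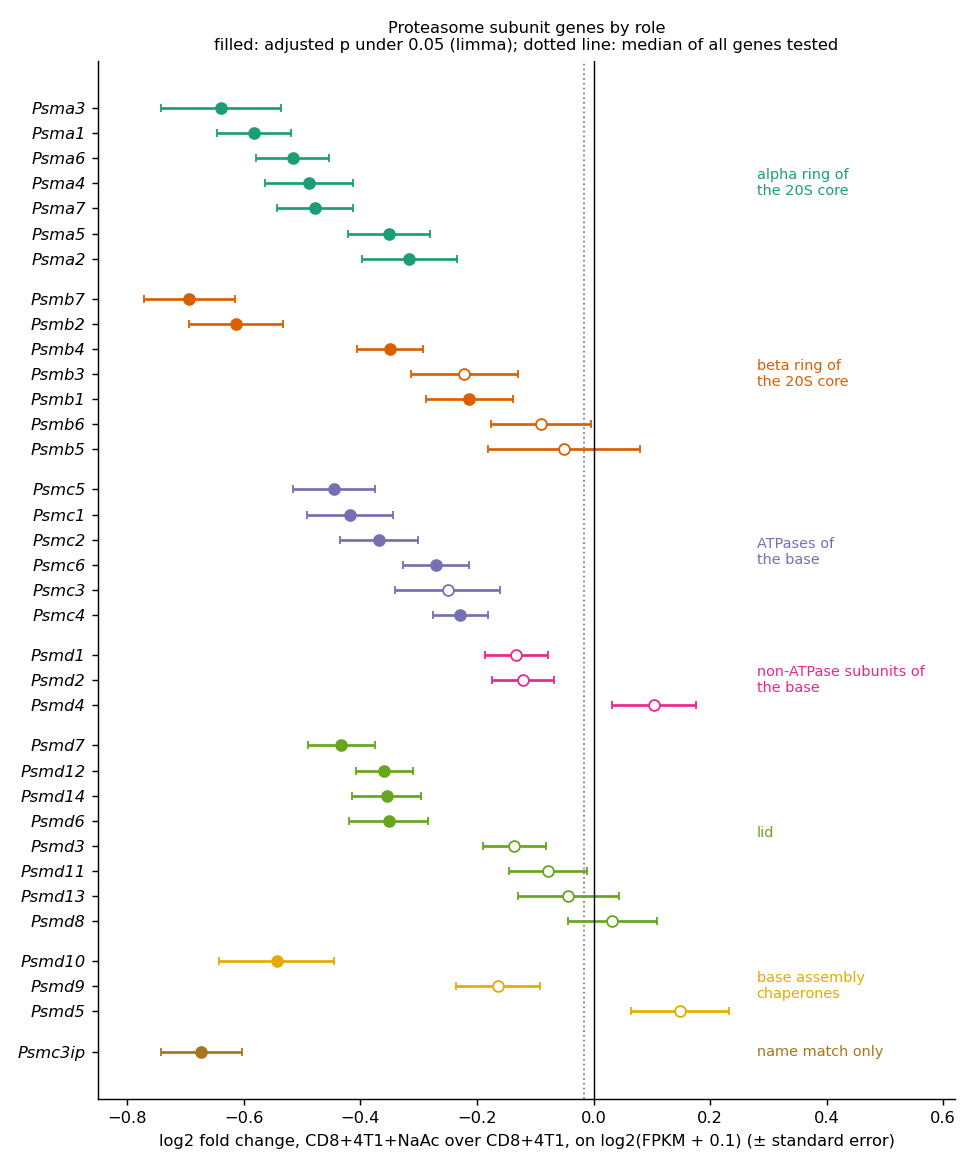
Log2 fold change (CD8+4T1+NaAc over CD8+4T1, n = 5 each, on log2(FPKM + 0.1)) of the 35 tested members by role, with standard errors as horizontal bars; filled points passed the test. All 7 alpha ring genes are filled and left of 0, while the 3 non-ATPase genes of the base are open; on the scale rescaled to the same total, Psmd4, Psmd5 and Psmd8 were higher and Psma2, Psma5, Psmb1, Psmc4, Psmc6 and Psmd6 did not pass the test.

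Promoters were read for members that were lower and for members that did not pass the test. RefSeq entries on GRCm38.p6 were matched by symbol for 30 of the 37 members, giving 32 promoters; those of Psmb1, Psmb2, Psmb7, Psmc3, Psmd3, Psmd7 and Psma8 were not in the table. The 250 bases before each start were searched on both strands for 4 sets of letters: TGACNNNGC (the antioxidant response element, as bound by the proteasome factor Nfe2l1 and its relative Nfe2l2), CCAAT (the CCAAT box), CCGGAAG (an ETS site) and CACGTG (an E-box). No matches of different sets overlapped in a member promoter. The 120 bases nearest the start are shown for 6 members, 5′ to 3′ along the gene and ending 1 base before the start, with matches in capitals. Psma1 (chr7:114276117-114276236 on the minus strand), Psmc1 (chr12:100110082-100110201 on the plus strand) and Psmd10 (chrX:140956712-140956831 on the minus strand) were lower, and Psmb5 (chr14:54617996-54618115 on the minus strand), Psmb6 (chr11:70525237-70525356 on the plus strand) and Psmd2 (chr16:20651532-20651651 on the plus strand) did not pass the test.
Psma1: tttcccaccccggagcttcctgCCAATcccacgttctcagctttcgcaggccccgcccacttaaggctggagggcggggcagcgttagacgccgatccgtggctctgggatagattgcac
Psmc1: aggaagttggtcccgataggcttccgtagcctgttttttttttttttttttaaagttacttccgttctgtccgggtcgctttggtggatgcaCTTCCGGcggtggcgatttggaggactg
Psmd10: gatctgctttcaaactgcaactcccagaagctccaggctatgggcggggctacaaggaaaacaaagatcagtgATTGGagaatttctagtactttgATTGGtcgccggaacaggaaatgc
Psmb5: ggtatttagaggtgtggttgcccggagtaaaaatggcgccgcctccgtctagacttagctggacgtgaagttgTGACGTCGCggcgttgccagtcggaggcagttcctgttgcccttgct
Psmb6: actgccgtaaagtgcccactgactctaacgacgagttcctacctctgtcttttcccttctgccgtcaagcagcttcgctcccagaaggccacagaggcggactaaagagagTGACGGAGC
Psmd2: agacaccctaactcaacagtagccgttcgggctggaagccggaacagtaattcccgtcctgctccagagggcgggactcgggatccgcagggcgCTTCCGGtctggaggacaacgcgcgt

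The peptidase genes Psmb5 and Psmb6 hold TGACNNNGC close to the start, Psma1 and Psmd10 hold CCAAT on one strand or the other, and Psmc1 and Psmd2, which differ in their call, both hold CCGGAAG on the minus strand at a like distance. Over all members, TGACNNNGC stood in 5 of 32 promoters (15.6%, against 10.2% of all 32851 promoters in the table), CCAAT in 13 (40.6% against 33.9%), CCGGAAG in 11 (34.4% against 6.91%) and CACGTG in 2 (6.25% against 6.02%). The ETS letters differed most from all promoters in share. Their 11 promoters include that of Psmc3ip, matched by name only, and both promoters of Psmc2. Promoters of genes expressed at a like level were not compared. Of the 18 members that were lower and had a promoter, 7 held CCGGAAG, and of the 11 that did not pass the test 3 did. For CCAAT the counts were 10 of 18 and 2 of 11, and for TGACNNNGC 2 of 18 and 3 of 11. These counts are descriptions of letters and carry no test.

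The alpha ring fell as a whole. All 7 tested alpha genes were lower, and 6 of them without overlap between groups. Over all genes tested 19.0% were lower and 13.3% were lower without overlap. Of the genes whose mean reached 20 FPKM, 42.7% were lower. The median log2 fold change of the ring was -0.49, with a range from -0.64 (Psma3) to -0.32 (Psma2). Psma1 had the smallest adjusted p of the ring (chromosome 7, 113863841 to 113875353, minus strand as listed; the build of these positions is not given in the sources used here). Its replicates 1 to 5 stood at 104, 105, 107, 106 and 106 FPKM in CD8+4T1 and at 80.7, 67.3, 68.7, 62.8 and 74.2 FPKM in CD8+4T1+NaAc. The samples without NaAc lay within a few FPKM of each other and all above those with it. The means were 106 ± 1.24 and 70.7 ± 6.91 FPKM (SD, n = 5), and the log2 difference was -0.58 ± 0.06 (SE, limma, adjusted p = 8.19e-05).

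Psma3 (chromosome 12, 71021395 to 71043121, plus strand) showed the largest fall of the ring. Its replicates were at 40.4, 36.3, 33.8, 37.9 and 37.9 FPKM in CD8+4T1 and at 31.6, 22.4, 23.3, 20.7 and 22.6 FPKM in CD8+4T1+NaAc. Replicate 1 with NaAc stood well above the other 4 of its group and still below every sample without NaAc. The log2 fold change was -0.64 ± 0.10 (adjusted p = 7.70e-04), and it was -0.46 when the fragments of its processed pseudogene Gm13835, named after its values were seen, were added. Psma6, the member with the highest mean FPKM, fell from 180.3 ± 15.1 to 126 ± 4.28 FPKM. Psma4, Psma7, Psma5 and Psma2 had log2 fold changes of -0.49, -0.48, -0.35 and -0.32. Psma2 and Psma5 lost the call after rescaling to the same total, and Psma2 also after scaling to T cell markers. AW209491, which overlaps Psma2 on the same strand and was named after its values were seen, held 9.27% as many fragments and had -0.40 (adjusted p = 0.00868).

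The beta ring split. Psmb7, Psmb2, Psmb4 and Psmb1 were lower and Psmb3, Psmb6 and Psmb5 did not pass the test, so that the 3 peptidase subunits lay on both sides of the threshold. Psmb7 (chromosome 2, 38478048 to 38534099, minus strand), which carries the trypsin-like site, stood at 45.7, 61.6, 55.9, 54.8 and 58.2 FPKM in CD8+4T1 and at 35.0, 36.1, 34.9, 31.3 and 32.7 FPKM in CD8+4T1+NaAc. The groups were far apart, with the highest NaAc sample below the lowest sample without it. The log2 fold change was -0.69 ± 0.08 (adjusted p = 8.89e-05), the largest fall of the 35 tested members as listed. Psmb7 overlaps Nek6 on the opposite strand, which held 60.1% as many fragments and, named after its values were seen, had a log2 fold change of -0.18 (adjusted p = 0.0984); the strand setting of the counting is not given in the sources used here.

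Psmb6 (chromosome 11, 70416193 to 70418684, plus strand), which carries the caspase-like site and whose promoter holds TGACNNNGC nearest the start of those shown, stood at 77.8, 95.2, 101, 98.6 and 88.0 FPKM in CD8+4T1 and at 72.9, 87.7, 90.2, 92.6 and 88.5 FPKM in CD8+4T1+NaAc. Replicate 1 was the lowest of both groups and the ranges overlapped. Its log2 fold change was -0.09 ± 0.09 (adjusted p = 0.446), and it was 0.09 after rescaling to the same total.

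Psmb5 (chromosome 14, 54851576 to 54855479, minus strand), which carries the chymotrypsin-like site and has the same letters in its promoter, stood at 52.7, 55.0, 69.0, 73.9 and 71.2 FPKM in CD8+4T1 and at 47.8, 74.5, 61.0, 67.3 and 60.4 FPKM in CD8+4T1+NaAc. Both groups spread widely and overlapped, and the log2 fold change was -0.05 ± 0.13 (adjusted p = 0.791); it was 0.13 after rescaling to the same total. The value of this gene depends on how reads were divided: the pseudogene Gm3375, named after its values were seen, held a median of 61.2% of the fragments that fell on either. With the pseudogene rows added, Psmb5 averaged 177.6 ± 15.8 FPKM in CD8+4T1 and 142 ± 15.2 FPKM in CD8+4T1+NaAc, and it was lower (log2 fold change -0.32, adjusted p = 0.0131). Of the beta subunits without a peptidase site, Psmb2 fell by 0.61 and Psmb4 by 0.35 on the log2 scale. Psmb1 had the weakest call of the members (log2 fold change -0.21, adjusted p = 0.0455). It lost the call after rescaling to the same total, after scaling to T cell markers, with no filter (adjusted p = 0.0827), without trend and robust moderation (adjusted p = 0.0678) and in 7 of 10 fits that left out 1 sample, namely CD8+4T1 replicates 2 to 5 and CD8+4T1+NaAc replicates 3 to 5, with an adjusted p of up to 0.105. Psmb3 had -0.22 (adjusted p = 0.0826) and was called lower in 4 alternatives without a replicate block: without CD8+4T1 replicate 1 (adjusted p = 0.0258), without replicate 1 of both groups (0.00594), with sample weights (0.0122) and with voom on the recovered fragments (0.0472).

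**Figure D2:**
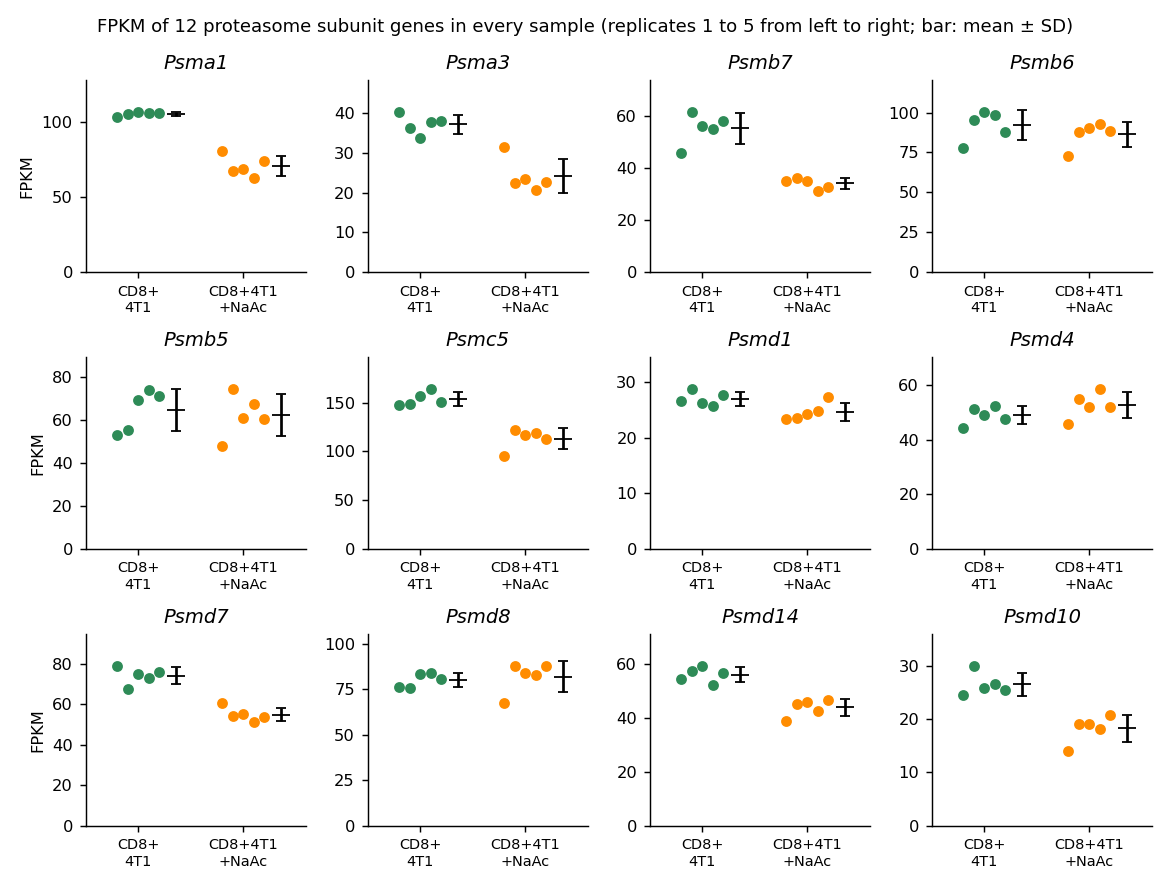
FPKM (vertical axes, from 0) of 12 members in each of the 5 CD8+4T1 and 5 CD8+4T1+NaAc samples, with mean and SD as bars. The groups do not overlap for Psma1, Psma3, Psmb7, Psmc5, Psmd7, Psmd14 and Psmd10, and overlap for Psmb6, Psmb5, Psmd1, Psmd4 and Psmd8. Replicate 1 with NaAc is the lowest sample of its group for Psmb6 (72.9 FPKM), Psmd8 (67.2 FPKM), Psmb5, Psmc5, Psmd1, Psmd4, Psmd14 and Psmd10. It is the highest for Psma3 (31.6 FPKM), Psma1 and Psmd7.

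The peptidase subunits have inducible counterparts, which replace them one for one in the immunoproteasome. All 3 counterparts were lower, against 19.0% of all genes tested and 42.7% of those whose mean reached 20 FPKM. Psmb8, the counterpart of Psmb5, stood at 92.6, 124, 114, 121 and 120.2 FPKM in CD8+4T1 and at 82.2, 73.1, 73.8, 70.5 and 73.3 FPKM in CD8+4T1+NaAc. Its groups did not overlap, and the log2 fold change was -0.61 (adjusted p = 2.49e-04). Psmb9, the counterpart of Psmb6, stood at 79.5, 100.4, 96.6, 98.9 and 96.9 FPKM in CD8+4T1 and at 70.5, 82.6, 78.2, 74.9 and 76.7 FPKM in CD8+4T1+NaAc. Its groups overlapped through CD8+4T1 replicate 1 and NaAc replicate 2, and the log2 fold change was -0.30 (adjusted p = 0.00713). Psmb10, the counterpart of Psmb7, stood at 46.1, 56.5, 52.7, 56.2 and 56.6 FPKM in CD8+4T1 and at 33.3, 49.9, 44.1, 41.4 and 44.2 FPKM in CD8+4T1+NaAc. Its groups overlapped as well, with NaAc replicate 1 the lowest sample, and the log2 fold change was -0.34 (adjusted p = 0.0235). Psmb9 and Psmb10 lost the call after rescaling to the same total and after scaling to T cell markers. Psmb10 also lost it without CD8+4T1 replicates 2, 4 or 5 or CD8+4T1+NaAc replicate 4, with an adjusted p of up to 0.0549.

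The ratio of each peptidase subunit to its counterpart is free of the scale of a sample, and the 3 ratios did not move together. For Psmb6 over Psmb9 the ratio of FPKM was 0.979, 0.948, 1.04, 0.997 and 0.908 in CD8+4T1 replicates 1 to 5 and 1.03, 1.06, 1.15, 1.24 and 1.15 in CD8+4T1+NaAc. Samples with NaAc were higher, with a small overlap, by 0.21 ± 0.06 (SE) in log2 ratio (exact permutation test, two-sided, p = 0.0159). For Psmb5 over Psmb8 it was 0.569, 0.445, 0.605, 0.611 and 0.593 in CD8+4T1 and 0.581, 1.02, 0.827, 0.956 and 0.824 in CD8+4T1+NaAc. All NaAc samples but replicate 1 were higher, and the log2 ratio was higher by 0.56 ± 0.16 (exact permutation test, p = 0.0317), by 0.69 without that replicate and by 0.29 with the pseudogene rows added to Psmb5. For Psmb7 over Psmb10 the order was opposite, with 0.993, 1.09, 1.06, 0.975 and 1.03 in CD8+4T1 and 1.05, 0.723, 0.790, 0.756 and 0.740 in CD8+4T1+NaAc. Again NaAc replicate 1 lay with the samples without NaAc and the other 4 lay below them, and the difference in log2 ratio was -0.36 ± 0.10 (exact permutation test, p = 0.0317) and -0.45 without that replicate. Adjusted over the 3 ratios, p was 0.0317 for each by the exact test, whose smallest p for 5 samples against 5 is 0.00794. These ratios and their test were chosen after the values were seen.

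**Figure D3:**
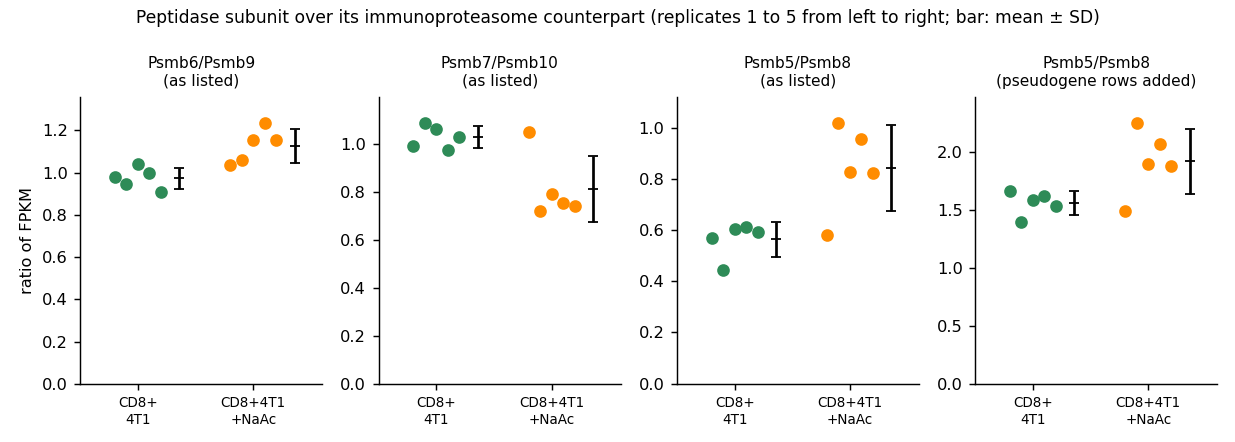
Ratio of FPKM (vertical axes, from 0) of each peptidase subunit to its immunoproteasome counterpart in the 5 samples of each group, with mean and SD as bars; the last panel adds the pseudogene rows to Psmb5. Psmb6/Psmb9 (means 0.975 and 1.13) and Psmb5/Psmb8 (0.565 and 0.841) were higher and Psmb7/Psmb10 (1.03 and 0.812) was lower with NaAc, and for Psmb5/Psmb8 and Psmb7/Psmb10 NaAc replicate 1 lies with the CD8+4T1 samples.

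The ATPases of the base were lower in 5 of 6 cases. Over all genes tested 19.0% were lower, and 42.7% of those whose mean reached 20 FPKM. The median log2 fold change of the ATPases was -0.32, with a narrow range from -0.45 to -0.23. Psmc5 (chromosome 11, 106146980 to 106153946, plus strand) had both the largest fall and the smallest adjusted p. It stood at 147, 148, 157, 164 and 151 FPKM in CD8+4T1 and at 94.7, 122, 117, 118 and 113 FPKM in CD8+4T1+NaAc. The groups lay well apart, and the log2 fold change was -0.45 ± 0.07 (adjusted p = 6.78e-04). Psmc1, Psmc2, Psmc6 and Psmc4 followed at -0.42, -0.37, -0.27 and -0.23. Psmc6 and Psmc4 lost the call under both rescaling to the same total and scaling to T cell markers, and Psmc1 under the second. Psmc3 had -0.25 (adjusted p = 0.0508) and was called lower in 9 alternatives: without CD8+4T1+NaAc replicates 1, 2 or 5, without replicate 1 of both groups, with a mean of at least 5 FPKM, with median-ratio scaling, with sample weights, with protein-coding genes alone and with voom on the recovered fragments, at adjusted p from 0.0187 to 0.0486. The genes overlapping it include Slc39a13 on the opposite strand, named after its values were seen, with 12.3% as many fragments and a log2 fold change of 0.44 (adjusted p = 0.0236), a call kept in 6 of 10 fits with a single sample removed (adjusted p of up to 0.0584).

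None of the 3 non-ATPase subunits of the base passed the test in the values as listed, although 2 of them, Psmd1 and Psmd2, had an unadjusted p under 0.05. With limma's sample weights both were lower (adjusted p = 0.0450 and 0.0427), and limma's voom on the recovered fragments called 0. Psmd1 is a scaffold of the base and stood at 26.5, 28.8, 26.2, 25.6 and 27.7 FPKM in CD8+4T1 and at 23.3, 23.5, 24.2, 24.8 and 27.3 FPKM in CD8+4T1+NaAc. The ranges overlapped, through NaAc replicate 5, and the log2 fold change was -0.13 (adjusted p = 0.0803); without that sample Psmd1 was lower (adjusted p = 0.0220). Psmd4, a receptor for ubiquitin chains, stood at 44.2, 51.3, 49.3, 52.6 and 47.8 FPKM in CD8+4T1 and at 45.7, 55.1, 52.1, 58.8 and 52.2 FPKM in CD8+4T1+NaAc. Its ranges overlapped too, with a log2 fold change of 0.10 (adjusted p = 0.293), and after rescaling to the same total it was higher. Psmd2, the other scaffold, which binds shuttle proteins that carry ubiquitin, had -0.12 (adjusted p = 0.0995). The sign of Psmd1 and Psmd2 turned after rescaling to the same total (0.04 and 0.06).

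The lid was mixed, with 4 of 8 genes lower. This lies near the 42.7% lower among all genes whose mean reached 20 FPKM, and above the 19.0% of all genes tested. Psmd7 and Psmd14 form the pair of MPN proteins at its centre, of which Psmd14 is the deubiquitinase that releases ubiquitin from the substrate. Psmd7 stood at 79.0, 67.4, 75.0, 72.7 and 76.0 FPKM in CD8+4T1 and at 60.3, 54.0, 55.0, 51.1 and 53.6 FPKM in CD8+4T1+NaAc. The groups did not overlap, and the log2 fold change was -0.43 ± 0.06 (adjusted p = 2.53e-04). Psmd14 stood at 54.3, 57.4, 59.3, 52.2 and 56.6 FPKM in CD8+4T1 and at 38.8, 45.2, 45.7, 42.6 and 46.5 FPKM in CD8+4T1+NaAc, also without overlap, with a log2 fold change of -0.35 ± 0.06 (adjusted p = 9.71e-04). The scaffold subunits Psmd12 and Psmd6 were lower, at -0.36 (adjusted p = 2.72e-04) and -0.35 (adjusted p = 0.00226). Psmd6 lost the call both after rescaling to the same total and after scaling to T cell markers.

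The other 4 lid genes did not pass the test. Psmd8 had the highest log2 fold change of the lid and stood at 76.2, 75.6, 83.3, 83.7 and 80.4 FPKM in CD8+4T1 and at 67.2, 87.8, 83.8, 83.0 and 88.0 FPKM in CD8+4T1+NaAc. Replicate 1 with NaAc was the lowest of all 10 samples, the groups overlapped, and the log2 fold change was 0.03 (adjusted p = 0.768); Psmd8 was higher after rescaling to the same total and after scaling to T cell markers. Psmd3, Psmd11 and Psmd13 had -0.14 (adjusted p = 0.0747), -0.08 (adjusted p = 0.399) and -0.04 (adjusted p = 0.732), and all 3 turned positive after rescaling to the same total. Psmd3 was lower without CD8+4T1 replicate 2 (adjusted p = 0.0313). Psmd13 shares its locus with Sirt3 on the opposite strand, which held 15.7% as many fragments and had -0.09 (adjusted p = 0.66), and with the processed pseudogene Gm15542 on the same strand, which held 10.9% and was lower at -0.54 (adjusted p = 1.73e-04) without overlap between groups; both were named after their values were seen.

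Of the chaperones that build the base, Psmd10, known as gankyrin, stood at 24.4, 30.0, 25.8, 26.6 and 25.5 FPKM in CD8+4T1 and at 14.1, 19.1, 19.1, 18.1 and 20.7 FPKM in CD8+4T1+NaAc. Its groups did not overlap, and the log2 fold change was -0.54 ± 0.10 (adjusted p = 0.00152). Psmd5 stood at 7.95, 6.40, 7.02, 7.46 and 7.29 FPKM in CD8+4T1 and at 8.83, 9.06, 7.68, 7.62 and 7.00 FPKM in CD8+4T1+NaAc, with overlap between groups and the highest log2 fold change of all members, 0.15 (adjusted p = 0.196). Psmd9 had -0.16 (adjusted p = 0.0977). Psmc3ip, which is no proteasome gene, stood at 10.3, 10.5, 9.04, 10.8 and 10.3 FPKM in CD8+4T1 and at 5.82, 7.12, 6.40, 6.47 and 6.03 FPKM in CD8+4T1+NaAc. Its groups did not overlap and its log2 fold change was -0.67 (adjusted p = 6.09e-05), while its neighbour Mlx on the opposite strand, named after its values were seen, held 185% as many fragments and had -0.40 (adjusted p = 0.0354), a call kept in 4 of 10 fits with a single sample removed (adjusted p of up to 0.0765).

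As a share of the summed FPKM of the 37 genes, which is free of the scale of a sample, the alpha ring held 25.9% to 27.0% in CD8+4T1 and 22.9% to 25.5% in CD8+4T1+NaAc. The non-ATPase subunits of the base held 6.84% to 7.08% and 8.10% to 8.86%. The alpha ring share was lower with NaAc by a narrow gap, 25.5% at most against 25.9% at least. The share of the base subunits was higher, while their summed level in FPKM was not: it came to 160.6 to 175.7 in CD8+4T1 and to 147.5 to 172.7 in CD8+4T1+NaAc, and none of the 3 genes was called in the values as listed. The beta ring (23.7% to 26.9% against 24.6% to 27.0%), the ATPases (20.8% to 22.2% against 21.0% to 21.6%) and the lid (16.3% to 18.5% against 18.4% to 18.8%) overlapped. These shares are descriptions over chosen groups and carry no test.

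**Figure D4:**
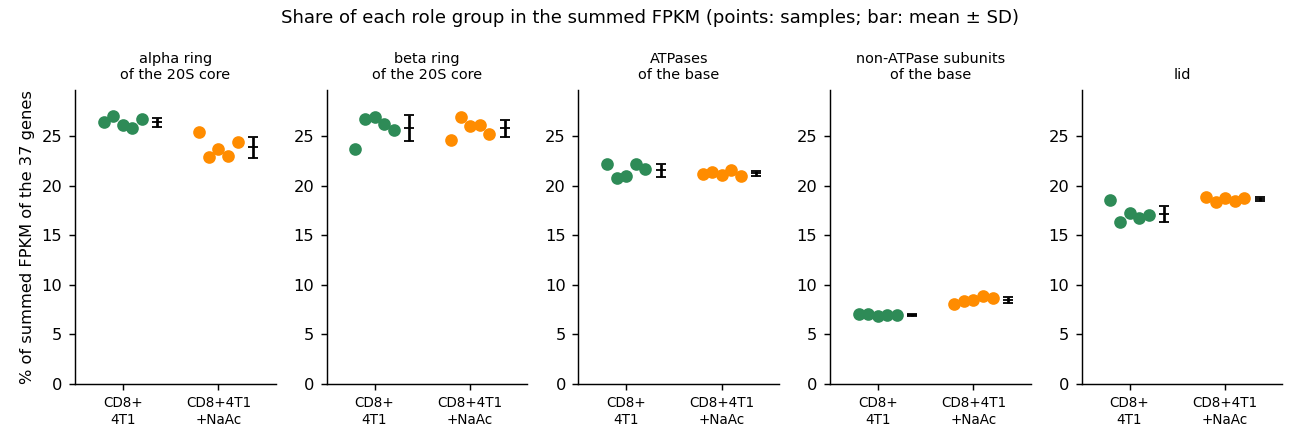
Share of each role group in the summed FPKM of the 37 members, in percent on a common axis from 0, for the 5 samples of each group, with mean and SD as bars. The share of the alpha ring is lower in all NaAc samples (at most 25.5% against at least 25.9%) and that of the non-ATPase subunits of the base is higher (at least 8.10% against at most 7.08%), although the summed FPKM of the latter overlap.

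The genes around the proteasome moved in part. Of 4 genes that govern its transcription, Nfe2l1, the main activator of subunit genes, had -0.01 (adjusted p = 0.929), its relative Nfe2l2 was higher at 0.33 (adjusted p = 0.0145), and Ngly1 and Ddi2, which process Nfe2l1, were lower at -0.37 (adjusted p = 0.0109) and -0.30 (adjusted p = 0.0254). Of 5 chaperones that build the 20S core 3 were lower: Psmg4 (-0.85, adjusted p = 1.17e-04), Psmg1 (-0.37, adjusted p = 0.0014) and the maturation factor Pomp (-0.34, adjusted p = 5.87e-04). Of 6 further subunits and bound factors 3 were lower, the small lid subunit Sem1 (-0.83, adjusted p = 8.89e-05), the deubiquitinase Uchl5 (-0.33, adjusted p = 0.00237) and the ubiquitin receptor Adrm1 (-0.19, adjusted p = 0.0105), and 1 was higher, the ubiquitin ligase Ube3c (0.36, adjusted p = 0.00499). Of the 5 activators and inhibitors Psme3 was lower (-0.23, adjusted p = 0.0216), and Psme2, a subunit of the interferon-induced activator, had -0.37 (adjusted p = 0.102). Of 12 genes of ubiquitin supply and delivery 5 were lower, with the polyubiquitin gene Ubb at -0.29 (adjusted p = 0.025) and the segregase Vcp at -0.18 (adjusted p = 0.0173), against a list median of -0.01. The counts of these lists stand against 19.0% lower and 17.6% higher over all genes. Among genes whose mean reached 20 FPKM, 42.7% were lower and 11.1% higher, and the 5 of 12 of the ubiquitin list lie near that share lower. Uchl5, Adrm1, Ngly1, Ddi2, Psme3 and all 5 lower genes of the ubiquitin list (Ubb, Vcp, Rad23b, Nploc4 and Ufd1) lost the call after rescaling to the same total. The same genes also lost it after scaling to T cell markers. Leaving out 1 sample ended the call of Psme3 in 5 of 10 fits (CD8+4T1 replicate 5 and CD8+4T1+NaAc replicates 2 to 5), of Ddi2 in 6 (replicates 2, 3 and 5 of either group), of Ubb in 3 (CD8+4T1 replicates 3 to 5) and of Ufd1 in 3 (CD8+4T1 replicates 1, 3 and 4), with adjusted p of up to 0.0534, 0.0601, 0.0593 and 0.0742. Ddi2 and Ufd1 also lost the call with no filter (adjusted p = 0.0511 and 0.0660), and Ufd1 without trend and robust moderation (0.0506).

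**Figure D5:**
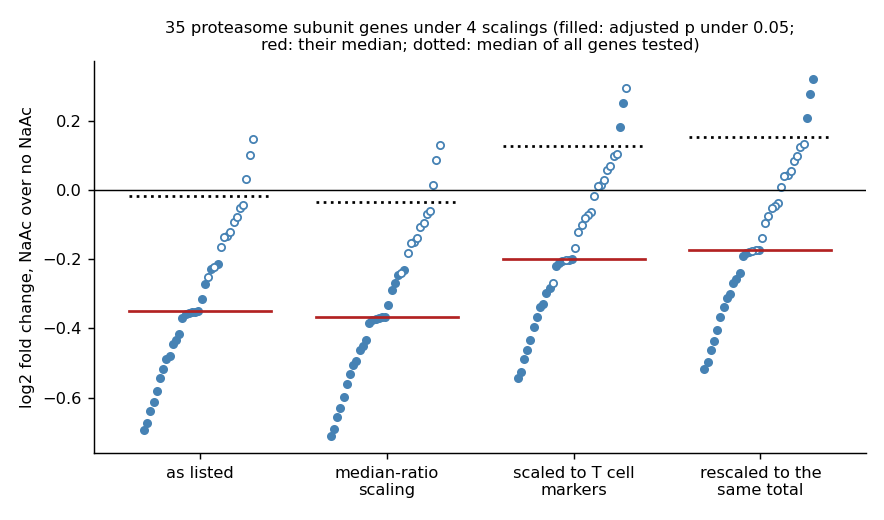
Log2 fold change (vertical axis) of the 35 tested members under 4 scalings of the samples, ordered within each; filled points passed the test, the red line is their median and the dotted line the median of all genes tested. The median of the members lies at -0.35, -0.37, -0.20 and -0.17 from left to right, and shifts with the median of all genes by construction, while 2 members (T cell markers) and 3 members (same total) turn to called higher.

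Part of the calls depended on the scale of the samples. Rescaling to the same total moved the median of all genes by 0.17 and scaling to T cell markers by 0.14, both upward on the log2 scale. Across all 4 scalings at most 8.03% of all genes tested can be lower, the share after scaling to T cell markers. Among the members 15 were lower across all 4: Psma1, Psma3, Psma4, Psma6, Psma7, Psmb2, Psmb4, Psmb7, Psmc2, Psmc5, Psmd7, Psmd12, Psmd14, Psmd10 and Psmc3ip. These hold 5 genes of the alpha ring, 3 of the beta ring, 2 ATPases, 3 lid genes, gankyrin and Psmc3ip. Psmd4 and Psmd8 were higher both after rescaling to the same total and after scaling to T cell markers, and Psmd5 after the first. The number of members lower was 23 without CD8+4T1+NaAc replicate 1, the sample that stood apart most often, and 24 without replicate 1 of both groups. The share of all genes tested that was lower rose as well, from 19.0% as listed to 22.6% in either fit.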

How the data were processed

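RNA sequencing of 10 samples, 5 CD8+4T1 and 5 CD8+4T1+NaAc, was analysed. The authors deposited FPKM per gene and sample, with gene length, position and biotype. The submitters' processing notes name fastp, HISAT2 2.0.5, StringTie 1.3.3b and featureCounts 1.5.0-p3; the study's own test used a count model. The genome build and the strand setting are not given in the sources used here. The other column used, also deposited by the authors, is the length of each gene. The product of FPKM and length rises in equal steps within a sample. The step, the product of a single fragment, was taken from the lowest products and refined by least squares over all genes; it gives the depth to which the FPKM of that sample refer. Divided by the step, 100% of the products above 0 were whole, to a tolerance of 0.1, and were used as recovered fragments.

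FPKM are not counts, so limma 3.58.1 (R 4.3.3) was run on log2(FPKM + 0.1) for genes whose mean reached 0.5 FPKM, with variance trend and robust moderation. The pseudocount understates the change of low genes. Calls are at a Benjamini-Hochberg adjusted p under 0.05 over all genes tested. The test was checked on simulated data. For a repeated name the row of highest mean was taken. Ratios of genes were compared on the log2 scale by exact two-sided permutation tests. At this depth a gene at low FPKM rests on few fragments.

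The members and the lists of other genes and markers were chosen with earlier results of these data known. Values in every sample are given, by rule, for the member with the smallest adjusted p, the largest rise and the largest fall in each role group, for the peptidase subunits with their counterparts and for the deubiquitinase; of the other lists, called genes and the first 2 by size of change are named. A gene of the ubiquitin list is not reported here and was left out of its counts.

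Alternatives were pseudocounts of 1 and 0.01, no filter, a minimum mean of 5 FPKM, scaling to equal totals, to median ratios or to T cell markers, limma with neither trend nor robust moderation, sample weights, the replicate number as a block, protein-coding genes alone, voom on whole fragments, a threshold of 0.01, and leaving out each sample in turn or replicate 1 of both groups. Adding pseudogene rows to their parent genes, and the ratios of genes with their tests and alternatives, were chosen after seeing the data.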

Additional observations from a re-analysis of the deposited data

Results flagged for a closer look

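In groups of 5 samples, a sample was marked where its gap to the nearest other sample exceeded 0.71 of the range of the group. This happened in 10 of the 70 groups of member values, where about 3.5 are expected by chance at 1 in 20. In 9 of these the sample apart was CD8+4T1+NaAc replicate 1. It was the lowest of its group for Psmb1 (33.7 FPKM), Psmb6 (72.9), Psmc3 (45.7), Psmd8 (67.2), Psmd13 (26.8) and Psmd9 (4.27), and the highest for Psma3 (31.6), Psmc1 (123.4) and Psmd11 (19.5). The other case was CD8+4T1 replicate 1, the lowest of its group for Psmb2 (141.4 FPKM against 181.8 to 192.6 in the other 4). What sets this library apart was not tested.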

How the results depend on the processing

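The number of members lower lay between 16 and 26 under all alternatives, against 22 as reported. The 26 came with sample weights, where 24.7% of all genes tested were lower. Under each alternative 15 members were lower at an adjusted p under 0.05. Over all genes tested at most 1261 can be, the number lower after scaling to T cell markers. Rescaling to the same total gave 3 members higher, a member median of -0.17, and 4900 genes higher and 1387 lower over all genes; scaling to T cell markers gave 2 members higher, a median of -0.20 and 1261 genes lower. The share of calls that were higher was 48.1% as listed, 77.9% after rescaling to the same total, 76.3% after scaling to T cell markers and 33.7% with a mean of at least 5 FPKM, which called 1257 genes higher. An adjusted p under 0.01 left 1832 genes higher and 1870 lower. Leaving out samples gave 21 to 24 members lower, 0 higher, 2369 to 3427 genes higher, 2524 to 3557 genes lower, a member median between -0.37 and -0.30, and differences in log2 ratio of 0.18 to 0.24 for Psmb6 to Psmb9, -0.46 to -0.32 for Psmb7 to Psmb10 and 0.48 to 0.69 for Psmb5 to Psmb8.

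Of the genes followed, those that changed sign were not called in the listed values, except Nploc4. After rescaling to the same total the log2 fold changes were 0.126 for Psmb5, 0.0867 for Psmb6, 0.0443 for Psmd1, 0.0565 for Psmd2, 0.0415 for Psmd3, 0.0990 for Psmd11, 0.134 for Psmd13, 0.0101 for Psmd9 and 0.00303 for Nploc4. After scaling to T cell markers they were 0.0991 for Psmb5, 0.0594 for Psmb6, 0.0171 for Psmd1, 0.0292 for Psmd2, 0.0142 for Psmd3, 0.0719 for Psmd11 and 0.107 for Psmd13. With each sample left out in turn, Psmb5 ranged from -0.119 to 0.0401, with 0.00244 without CD8+4T1 replicate 4, and Psmd13 from -0.0753 to 0.0414, the positive ends without CD8+4T1+NaAc replicate 1. Psmd13 was at 0.00922 without replicate 1 of both groups and at 0.0136 with sample weights. The causes were not tested.

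The labels do not say whether equal replicate numbers share a mouse or culture. Deviations of same-numbered samples correlated at -0.03 to 0.07, and the samples numbered 1 and 4 matched their own number best. These values, from 5 samples per group, cannot settle whether equal replicate numbers mark paired samples. With the number as a block 23 members were lower and 0 higher, with a member median of -0.35, and 2551 genes were higher and 2848 lower; the block called Psmb3 lower (adjusted p = 0.0139) and Ddi2 and Ufd1 did not pass with it (0.0555 and 0.0781).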
